A study of Homo sapiens with 18 samples.

Results

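CTCF occupancy after valproic acid (VPA) was examined by ChIP-seq in HEK293T cells, an established human embryonic kidney cell line. The 6 CTCF peak lists, 3 from untreated cells (CTRL) and 3 from cells given 1 mM VPA for 1 day, were chosen by antibody and treatment from the 18 samples of the series. Of these samples 12 have peak lists, 6 for CTCF and 6 for H3K27ac, and the H3K27ac lists serve here only to describe CTCF regions. Both groups are the same transformed line without any other treatment. The labels number the replicates 1 to 3 but do not say whether they came from separate cultures, so p-values measure the spread between these libraries, which may be technical.

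CTCF is a zinc-finger protein that binds a long, well-defined DNA motif. Together with the cohesin ring it marks the anchors of chromatin loops and the borders of topologically associated domains, and it insulates enhancers from promoters on the other side of such a border. VPA inhibits histone deacetylases, and acetylated histone H3 lysine 27 (H3K27ac) marks active promoters and enhancers. The comparison asks whether CTCF peaks were gained, lost or altered in strength after the treatment, at which genes, and whether any class of site was affected more than others.

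The core of the CTCF motif was searched as CCA, AG and GGC with 2 free bases between neighbouring parts, 12 bases in all, on both strands and within 100 bp of a summit. The sequences below are shown because they lie at regions described later. They were chosen for holding the motif, so the search fixed their shared letters, and regions without it are not shown. Each is 30 bases of the hg38 genome read 5′ to 3′ on the strand that holds the motif, which is in capitals. The first 5 belong to regions shared by all 6 libraries, among the 10 in each direction with the smallest p for a difference, higher in VPA at GPC5 and RGL1 and lower at the other 3.
GPC5 (chr13:92187566-92187595, + strand): ctctctttaCCAGAAGGTGGCactgcaccc
RGL1 (chr1:183685286-183685315, − strand): aggtatttaCCACAAGATGGCactgctgat
ITGB3BP and EFCAB7 (chr1:63557569-63557598, + strand): aaactgtgaCCAGGAGAGGGCagcaaaaag
near C16orf96 (chr16:4548920-4548949, − strand): actgtgttgCCAGCAGATGGCactggttat
DDX10 (chr11:108871354-108871383, − strand): tccaagcccCCAGCAGAGGGCaggatgccc

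The next 6 come from regions with peaks on one side of the comparison alone, on the VPA side at EXOC1, POC1B, TAF4B and DAZL and on the CTRL side near HEG1 and at MYO1D.
EXOC1 (chr4:55867153-55867182, − strand): gcttattagCCACTAGGGGGCagggactgc
POC1B (chr12:89470925-89470954, + strand): agtatccttCCAACAGGAGGCagtataaca
TAF4B (chr18:26383866-26383895, + strand): gcttgttgaCCAGCAGAGGGCagtgaattt
DAZL (chr3:16601425-16601454, + strand): agttctcagCCAGCAGGTGGCgctcaaagc
near HEG1 (chr3:125075989-125076018, − strand): gggggagggCCAGCAGGGGGCtttccaccc
MYO1D (chr17:32609270-32609299, − strand): ctgtggtagCCAGGAGGTGGCacttcggta

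The last 4 come from the promoter-proximal coding sequence of the protocadherin alpha genes, where every library had peaks.
PCDHA4 (chr5:140807635-140807664, + strand): tctcggtttCCACTAGAGGGCgcctcggat
PCDHA7 (chr5:140834831-140834860, + strand): tctcggtttCCACTAGAGGGCgcgtccgat
PCDHA9 (chr5:140848943-140848972, + strand): tctcggtttCCACTAGAGGGCgcgtccgat
PCDHA13 (chr5:140882716-140882745, + strand): actcgatttCCACTAGATGGCgcatccgat
PCDHA7 and PCDHA9 share all 30 bases, so reads there could have been split between near-identical copies.

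By replicate number, CTCF list lengths were 39818, 58782 and 56576 for CTRL, and 36469, 53458 and 55325 for VPA. Read totals are unknown, and background coverage recovered from the peak values, a measure of relative depth, lay between 3.59 and 3.93 fragments. Replicate 1 stood apart in both treatments. Its lists were the shortest, 31.7% (CTRL) and 31.9% (VPA) of its peaks had no more local than genome-wide background against 8.81% to 13.5% in the other 4 lists, and its median fold enrichment was 9.75 and 9.74 against 14.5 to 16.3. Over the 27794 regions that all 6 libraries shared, Pearson's r of log2 fold enrichment was 0.94 to 0.95 among CTRL replicates 2 and 3 and VPA replicate 3, 0.86 between each of these and VPA replicate 2, and 0.62 to 0.72 between a replicate 1 library and any other, described across regions that share libraries and the peak caller. Replicate 1 is therefore given apart throughout.

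Merging the 6 lists gave 69985 union regions. Of these, 27794 (39.7%) had a peak in all 6 libraries, and 10056 had one in 2 libraries of each treatment. Presence in 2 or 3 VPA libraries but 0 of 3 from CTRL was found at 1121 regions, 1.6% of the union. The reverse, 2 or 3 from CTRL but 0 of 3 from VPA, was found at 2275 regions, 3.25% of the union. These are called the VPA side and the CTRL side below. Just inside the threshold lay 991 VPA-side and 2047 CTRL-side regions with 2 libraries. Just outside it 4106 regions had 1 VPA library and no CTRL library, and 5925 had the reverse. Another 4241 had 2 CTRL libraries and 1 VPA library, and 1558 had 1 CTRL library and 2 VPA libraries. A peak in 3 of 3 against 0 of 3 was rare, with 130 regions on the VPA side and 228 on the CTRL side.

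**Figure D1:**
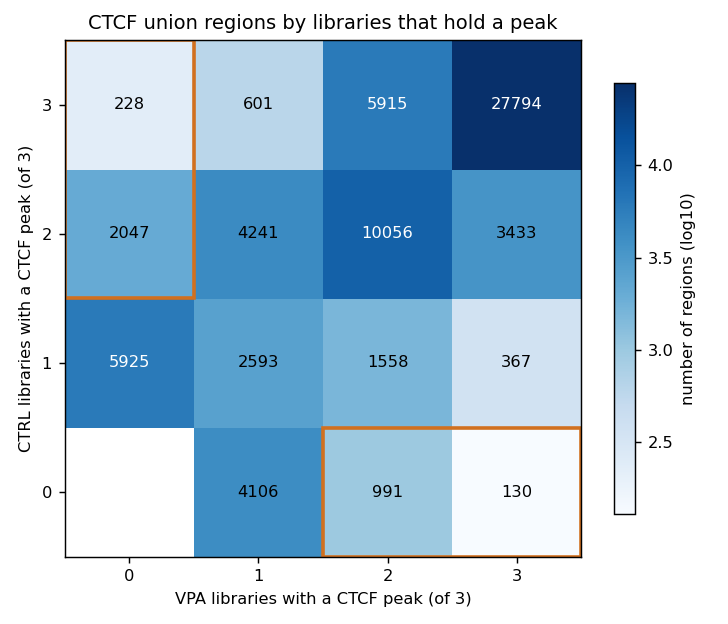
Number of CTCF union regions by how many of the 3 VPA libraries (x axis) and how many of the 3 CTRL libraries (y axis) held a peak; colour gives log10 of the number, and orange frames mark the VPA side and the CTRL side. The cell with all 6 libraries holds 27794 regions, while the framed corners hold 991 and 130 regions (VPA side) and 2047 and 228 regions (CTRL side).

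The larger number on the CTRL side rested on replicates 2 and 3. Of its 2275 regions, 1621 (71.3%) had peaks in CTRL replicates 2 and 3 but not 1, and 654 (28.7%) included replicate 1. On the VPA side 495 regions (44.2%) had replicates 2 and 3 alone, and 626 (55.8%) included replicate 1. With replicates 2 and 3 alone the numbers were 882 (VPA side) and 1952 (CTRL side). With every list limited to its 36469 strongest peaks the order was the opposite, 764 regions on the VPA side and 526 on the CTRL side. Without VPA replicate 3 the CTRL side grew to 5481 regions and without CTRL replicate 2 it shrank to 416, against 292 and 2136 on the VPA side. The rule still asked for 2 libraries, so leaving out 1 made it stricter for its own side and easier for the other.

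One-sided regions were weaker than shared ones and held the motif less often, as did other regions missing from some libraries. Their median of the highest fold enrichment among libraries was 5.55 on the VPA side and 5.46 on the CTRL side, against 58.0 at regions shared by all 6 libraries and 7.50 at the remaining 38795 regions, which were neither one-sided nor shared by all. The motif lay at 13.5% of VPA-side regions (95% Wilson interval 11.6 to 15.6%), 8.35% of CTRL-side regions (7.28 to 9.56%), 26.2% of regions in all 6 libraries (25.7 to 26.7%), 11.02% of the remaining regions (10.7 to 11.3%) and 17.01% of the union, and at 0.716% of windows 2 kb away. On the VPA side it was at 19.8% of the regions that included replicate 1 (16.9 to 23.1%) and at 5.45% of those that did not (3.78 to 7.82%). On the CTRL side these shares were 7.65% (5.85 to 9.94%) and 8.64% (7.37 to 10.1%). The intervals cover counting error over regions and not the spread between cultures.

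CTRL-side regions lay within introns in 49.1% of cases (47.0 to 51.2%), VPA-side regions in 37.9% (35.1 to 40.8%) regions in all 6 libraries in 35.2% and the remaining regions in 40.2%. Promoters, within 1 kb of a transcription start site (TSS) of a protein-coding gene, held 5.27% of CTRL-side, 8.74% of VPA-side, 13.5% of all-6 and 6.61% of the remaining regions. The median distance to a TSS was 47.2 kb on the VPA side, 47.3 kb on the CTRL side, 24.7 kb at all-6 regions and 51.0 kb at the remaining ones. Median GC content was 50.7%, 49.8%, 57.2% and 50.2% in the same order. In motif, promoter share, distance and GC content the one-sided regions thus lay nearer to the remaining regions than to the all-6 regions. The intron share of the CTRL side was above both. Its intergenic share (38.8%) was below those of all-6 (42.4%) and remaining regions (47.5%), while the VPA side (45.1%) lay between them. Exons held 8.21% of VPA-side, 6.86% of CTRL-side, 8.89% of all-6 and 5.70% of the remaining regions, so here the VPA side was nearer to all-6 regions.

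By within-list rank of fold enrichment, the strongest VPA-side regions lay in EXOC1, near NR4A3, in POC1B, TBC1D5, TAF4B, RNF150 and PITPNB, near WSB1, and in DTNB and HUNK. EXOC1 encodes a subunit of the exocyst, which tethers secretory vesicles, and its region (chr4:55866898-55867510, intron) had fold enrichments of 12.6 in VPA replicate 1 and 20.0 in replicate 3. The region near NR4A3, an orphan nuclear receptor gene, had 10.0 and 20.3 in the same libraries. The TAF4B region (chr18:26383553-26384188), in an intron of a TFIID subunit gene, had 15.4 and 8.72. These and 6 more of the 10 were absent from VPA replicate 2, and the HUNK region alone was present in 3 of 3 VPA libraries (13.96, 11.8 and 9.82). None of the 10 had a peak in any CTRL library, as the rule requires.

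The strongest CTRL-side regions lay near RPF2 and SGIP1, near HEG1, in KPNA3, near MMS22L, PI3, KICS2 and NXPE2, and in CACNA1D and TUBGCP5. The region near RPF2, a ribosome assembly gene, had fold enrichments of 15.9 and 13.6 in CTRL replicates 2 and 3. The region near HEG1 (chr3:125075618-125076482) had 18.7 and 5.76 in replicates 1 and 2, and the one in the calcium channel gene CACNA1D had 17.6 and 4.93. In KPNA3, an importin gene, the values were 12.7 and 10.8 in replicates 2 and 3, 1.25 kb from its TSS. No region of the 10 was present in 3 of 3 CTRL libraries.

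Among regions with the motif and a peak in 3 of 3 against 0 of 3, the strongest were chosen after their values were seen. On the VPA side the intronic DAZL region (chr3:16601130-16601701) had fold enrichments of 9.44, 8.55 and 19.2, and the intronic region of ROBO1, a receptor for SLIT proteins, had 13.0, 4.49 and 5.45. On the CTRL side the region near KLHL29 had 14.8, 5.36 and 7.004, and the one in MYO1D, a myosin gene, had 10.1, 4.72 and 8.21.

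Strength was compared at the 27794 regions shared by all 6 libraries, using log2 fold enrichment after subtraction of each library's median. No region passed an adjusted p of 0.05 in limma (0% of 27794 higher and 0% lower). At an unadjusted p under 0.05 there were 27 higher and 56 lower regions, and the other settings of this test also gave 0 adjusted calls. The median difference was 0.10 on the log2 scale, and 97.4% of regions differed by less than 1 log2 unit. The 95% interval of a region extended a median of 1.29 log2 units on both sides, and 0.79 log2 units with replicates 2 and 3 alone, where 45129 regions entered and again none passed (1488 higher and 1144 lower at an unadjusted p under 0.05). The groups did not overlap at 370 regions higher in VPA (1.33%) and at 530 lower (1.91%). The names that follow are the smallest p in each direction and none is a call.

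At GPC5, a glypican gene that codes for a heparan sulfate proteoglycan of the cell surface, an intronic region (chr13:92186685-92187931, motif) had fold enrichments of 16.8, 2.61 and 1.78 in CTRL and 27.5, 13.7 and 21.8 in VPA. The difference was 2.36 ± 0.74 on the log2 scale (SE, 95% interval 0.89 to 3.83, limma adjusted p = 1). CTRL replicate 1 lay above VPA replicate 2, so the groups overlapped. Summit pileups were 77, 41 and 34 fragments in CTRL and 143, 63 and 99 in VPA.

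FOXC1, a forkhead transcription factor gene of eye and kidney development, had an exonic region (chr6:1611190-1611981) with fold enrichments of 3.39, 4.88 and 5.80 in CTRL and 13.2, 13.9 and 12.3 in VPA. All VPA libraries exceeded all CTRL libraries, and the log2 difference was 1.64 ± 0.65 (SE, adjusted p = 1). Its pileups were 206, 75 and 62 fragments in CTRL and 604, 177 and 132 in VPA, which overlapped. It lay in H3K27ac peaks of both treatments. An intronic region of SLIT2 (chr4:20313455-20314200), the axon guidance ligand, had 5.85, 8.402 and 9.07 in CTRL and 16.6, 23.4 and 22.3 in VPA, again without overlap (1.54 ± 0.65, adjusted p = 1). An exonic region of NRP2 (chr2:205763449-205764181), a semaphorin receptor gene, had 4.50, 9.88 and 7.37 in CTRL and 16.8, 21.1 and 15.7 in VPA. MAML2, a Notch coactivator gene, had 4.82, 7.72 and 7.45 in CTRL and 8.57, 25.5 and 20.4 in VPA. These regions of FOXC1, SLIT2, NRP2 and MAML2 do not hold the motif, and at each of them the groups overlapped in pileup after centring. The remaining 5 lay in SDCCAG8, RGL1, ASB8, SLC35F1 and SLCO5A1, with log2 differences between 1.41 and 1.58. Within replicates 2 and 3 the differences of all 10 lay between 1.13 (NRP2) and 3.04 (GPC5). These libraries also entered the choice of the 10 regions, so this is not separate evidence.

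Of the 10 regions with the smallest p in the other direction, 9 had their lowest uncentred value of all libraries in VPA replicate 1. That library also had the lowest median fold enrichment over the shared regions, 12.4, against 15.0 in CTRL replicate 1 and 42.5 to 45.3 elsewhere. An intergenic region (chr20:60210691-60211878) whose nearest TSS was that of CDH26, 253 kb away, had fold enrichments of 262, 157 and 131 in CTRL and 18.6, 78.4 and 73.7 in VPA (−1.77 ± 0.66, SE, adjusted p = 1). PGAP2, a gene of GPI anchor maturation, had 54.6, 47.4 and 50.6 in CTRL and 1.78, 42.5 and 31.6 in VPA. At both the groups did not overlap in fold enrichment, and within replicates 2 and 3 the log2 differences were −0.88 and −0.38. PDE4D, a cAMP phosphodiesterase gene, had 35.3, 16.5 and 23.7 in CTRL and 5.73, 7.17 and 8.99 in VPA, and its difference within replicates 2 and 3 was −1.26. After centring its groups overlapped in fold enrichment and in pileup.

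At the intron shared by ITGB3BP and EFCAB7 (chr1:63556686-63558010, motif) the values were 7.53, 53.2 and 53.1 in CTRL and 2.33, 3.96 and 54.7 in VPA. VPA replicate 3 thus matched CTRL replicates 2 and 3, and VPA replicate 2 did not. DDX10, an RNA helicase gene, was likewise low in VPA replicates 1 and 2 but not 3, with 12.9, 53.7 and 31.7 in CTRL and 5.55, 3.81 and 33.1 in VPA. The region near C16orf96 (motif) had 41.4, 44.2 and 38.6 in CTRL and 2.38, 36.0 and 25.0 in VPA. The others lay in NDUFA12, a respiratory complex I gene, in ADARB1, an RNA editing enzyme gene, in ELMOD1 and in the potassium channel gene KCNN2, with log2 differences between −1.70 and −1.54.

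**Figure D2:**
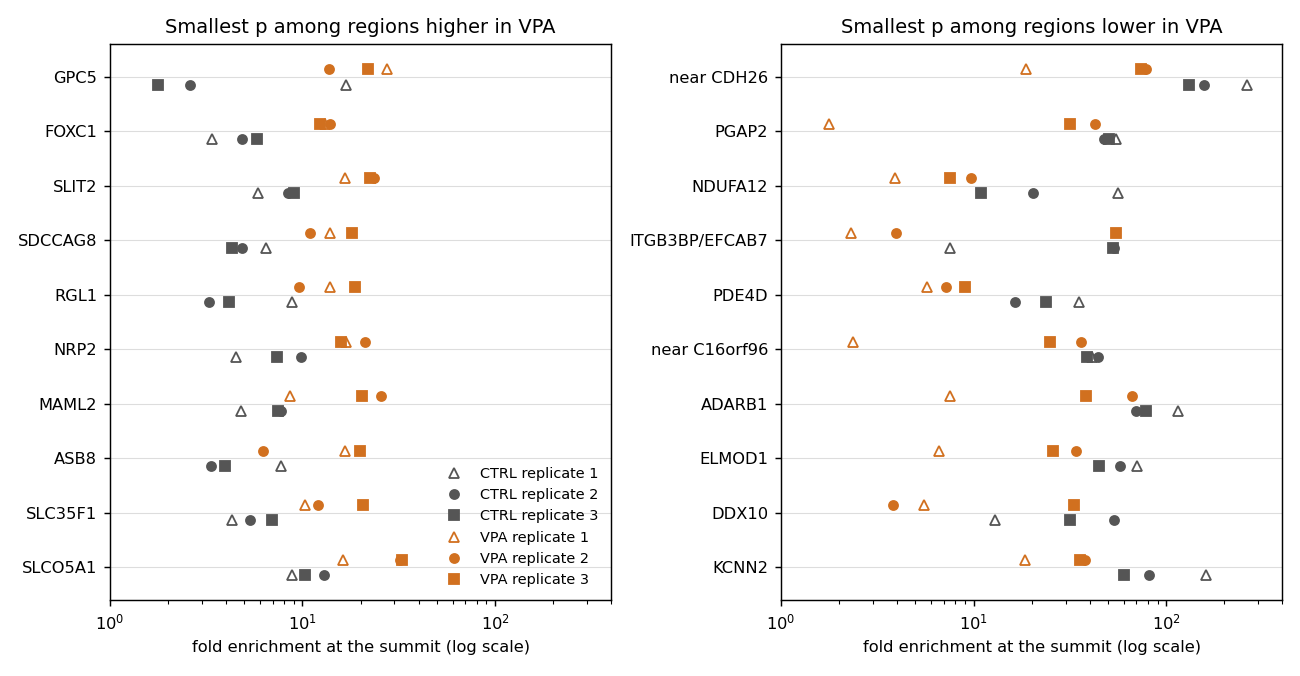
Fold enrichment at the summit (log scale) in each of the 6 CTCF libraries, for the 10 regions with the smallest limma p that were higher (left) and lower (right) in VPA; grey marks CTRL, orange VPA, and open triangles replicate 1. At FOXC1 the 3 VPA libraries lie at 12.3 to 13.9, all above the CTRL libraries at 3.39 to 5.80, while at PGAP2 VPA replicate 1 (1.78) lies far below VPA replicates 2 and 3 (42.5 and 31.6).

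Fold enrichment depends on the local background, so the pileup (fragments stacked at a summit, recovered from the deposited values) was examined too, after the same centring. With pileups limma gave 0 calls in both directions and 0 regions at an unadjusted p under 0.05, and with replicates 2 and 3 alone again 0 calls, with 2024 higher and 1043 lower at an unadjusted p under 0.05. The groups did not overlap at 131 regions higher (0.471%) and 247 lower (0.889%). In both measures at once they did not overlap at 11 regions higher in VPA (0.0396%) and 80 lower (0.288%). None of the 11 was at a promoter and 4 held the motif, while of the 80, 40 were intronic, 31 intergenic, 7 at promoters and 13 held the motif. Separation here is of values centred by library median, and the uncentred fold enrichments given next can overlap. The largest differences of this kind, looked up after the values were seen, were higher in an intron of SPINT2 (1.77, 4.51 and 3.93 in CTRL and 2.16, 10.1 and 8.04 in VPA) and near NTRK3, a neurotrophin receptor gene (5.67, 17.01 and 11.9 against 12.9, 25.5 and 18.1). The largest lower ones lay near C16orf96 and near KCNIP1, where values were 106, 57.9 and 48.3 in CTRL and 9.40, 34.1 and 32.8 in VPA.

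CTCF peaks were counted per protein-coding gene, from 10 kb before to 10 kb after the gene body, and scaled to the mean list length. Of 19103 genes, 5584 had a mean of at least 3 peaks and were tested. No gene passed an adjusted p of 0.05 in limma (0% higher and 0% lower, with 40 higher and 69 lower at an unadjusted p under 0.05). At 581 genes (10.4%) the unscaled number was identical in all 6 lists. Scaled numbers did not overlap between groups at 242 genes higher in VPA (4.33%) and at 177 genes lower (3.17%). Since lists differ in length, scaling alone can separate equal counts, and without it 13 genes were higher (0.233%) and 61 lower (1.09%). Both held for 6 genes higher (0.107%) and 29 lower (0.519%). The 6 were IL24, HACD2, SH2D3C, LIPA, CHID1 and TMEM260.

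Among genes with more peaks in VPA, ENSG00000282218 on chromosome 6 had 2, 7 and 5 CTRL peaks and 6, 7 and 9 VPA peaks, which gave 4.30 ± 1.73 and 7.65 ± 0.95 scaled peaks (SD, n = 3 each, limma adjusted p = 0.995). TMEM260 had 3, 6 and 5 CTRL peaks and 7, 7 and 7 VPA peaks. CHID1 had 3, 5 and 4 against 6, 6 and 6, with 2 VPA-side regions among them. LIPA, the lysosomal acid lipase gene, had 1, 3 and 3 against 4, 5 and 4. At TMEM260, CHID1 and LIPA every VPA list held more peaks than any CTRL list. The others by scaled number were PLCL1, CPNE4, C4orf50, TSNARE1, ASPH and RIMS2, the last a gene of the presynaptic active zone with 5, 9 and 7 peaks against 8, 9 and 9.

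PLXNA4, a semaphorin coreceptor gene, had the largest scaled difference in the other direction, with 17, 18 and 17 CTRL peaks and 6, 16 and 15 VPA peaks (17.3 ± 3.58 and 12.3 ± 3.56 scaled peaks, SD, n = 3 each, limma adjusted p = 0.995). VPA replicate 1 was far below the rest there. SYT2, a synaptotagmin gene, had 10, 11 and 10 against 3, 9 and 8, and TCF7L1, a Wnt pathway transcription factor gene, had 12, 13 and 13 against 6, 11 and 10. PALM2AKAP2 had 13, 20 and 18 CTRL peaks and 8, 12 and 15 VPA peaks (16.4 ± 0.558 and 11.9 ± 1.43 scaled), and 5 CTRL-side regions with 0 VPA-side ones. GLIS1, a zinc-finger transcription factor gene, had 12, 16 and 17 against 9, 12 and 10, with 4 CTRL-side regions. RARB, a retinoic acid receptor gene, had 13, 18 and 13 against 8, 11 and 12. CACNA1D had 10, 18 and 16 against 7, 12 and 13, with 5 CTRL-side regions and 1 VPA-side region. DOCK3, AGAP1 and AOPEP completed the 10.

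**Figure D3:**
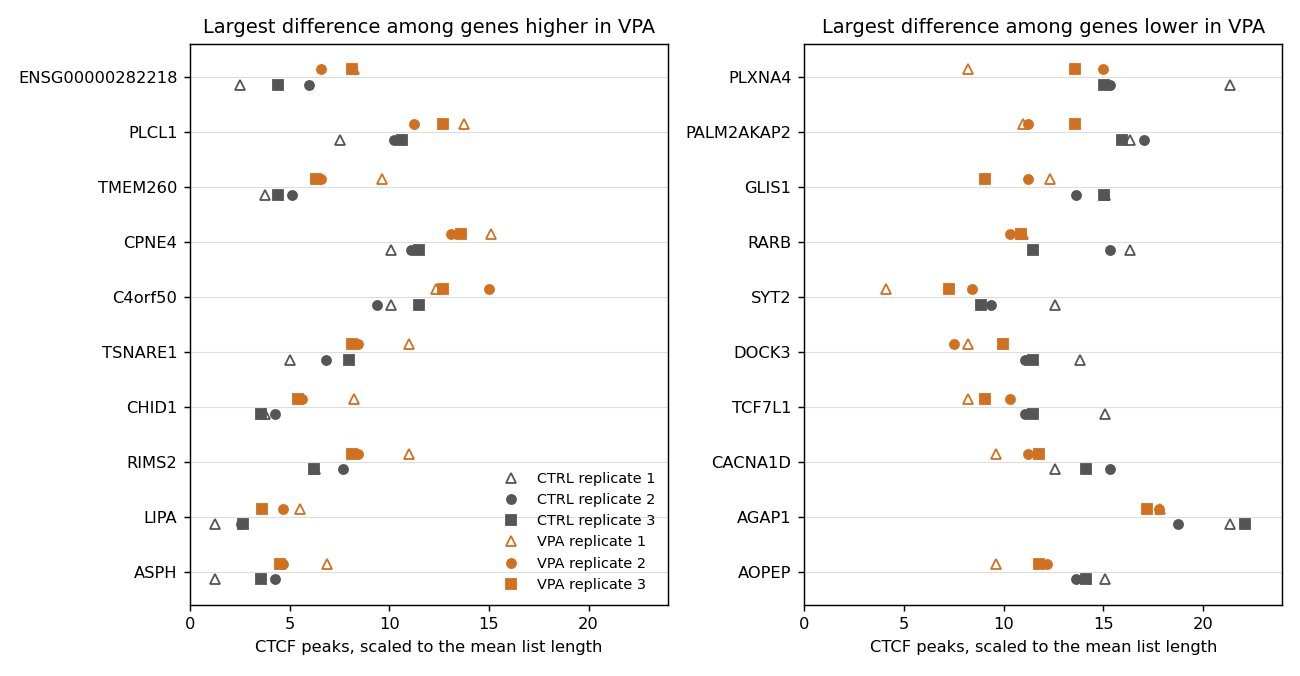
CTCF peaks per gene scaled to the mean list length in each of the 6 libraries, for the 10 genes with the largest difference in each direction among those whose groups do not overlap (left, higher in VPA; right, lower); grey marks CTRL, orange VPA, and open triangles replicate 1. TMEM260 lies at 3.77 to 5.11 in CTRL and 6.34 to 9.61 in VPA, and PALM2AKAP2 at 15.9 to 17.04 in CTRL and 10.98 to 13.6 in VPA.

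CTRL-side regions without a VPA-side one were found at 1614 of the 19103 genes, VPA-side regions without a CTRL-side one at 784, and both at 131. At least 2 CTRL-side regions were found at 191 genes and at least 2 VPA-side regions at 31. ERC2, CCDC200, PALM2AKAP2 and CACNA1D held the most CTRL-side regions, 5 each, and RAPGEF4 and TBC1D5 the most VPA-side regions, 3 each, names looked up after the values were seen. Overlapping genes share regions, and long genes can hold more of them.

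The clustered protocadherin genes on chromosome 5, which neurons choose among at random for cell-surface identity, depend on CTCF sites at their promoters. Across the alpha cluster 14 regions were counted within the window of PCDHA1, and 14 peaks were called there in each of the 6 libraries. Of these regions 13 were at promoters and none lay in an H3K27ac peak. Levels differed strongly within the cluster. Fold enrichments at PCDHAC1 were 29.2, 73.5 and 48.8 in CTRL and 56.1, 75.1 and 53.9 in VPA, those at PCDHA5 were 19.9, 45.5 and 42.1 against 21.4, 62.6 and 60.1, and those at PCDHA6 were 2.13, 5.88 and 4.36 against 3.34, 7.51 and 4.93. Log2 differences in the 14 regions ran from −0.39 at PCDHA12 to 0.51 at PCDHA6, with SEs of 0.64 to 0.65. The beta genes were uneven between libraries, with PCDHB16 at 1, 5 and 5 CTRL peaks and 2, 5 and 5 VPA peaks, low in replicate 1 of both treatments. PCDHGA3, with the lowest scaled difference among the tested genes of the list, had 19, 23 and 21 against 16, 22 and 21. Of 53 protocadherin genes 35 were tested and 0 of these had non-overlapping groups, beside 4.33% higher and 3.17% lower over all tested genes. The same number in all 6 lists was found at 16 of the 53, untested ones included, beside 10.4% of all tested genes. The windows of the alpha genes are nested, as are those of many gamma genes, so the same regions are counted for several genes.

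HOX genes, which pattern the body axis and lie in clusters subdivided by CTCF sites, held 62 union regions, 30 of them in all 6 libraries. Of the 62, 2 were on the VPA side and 0 on the CTRL side, beside 1.6% and 3.25% of the union. The median log2 difference of the 30 was 0.42, beside 0.10 over all such regions. HOXA10 had 3, 5 and 4 CTRL peaks and 4, 6 and 5 VPA peaks and was the 1 of 19 tested HOX genes whose scaled groups did not overlap, beside 4.33% of all tested genes in that direction. The highest difference in scaled number among the tested was 1.53 at HOXA9 (3, 6 and 4 against 5, 6 and 5) and the lowest was −1.13 at HOXC8 (5, 6 and 5 against 3, 5 and 4), and the groups overlapped at both. Imprinted genes, at some of which CTCF reads the methylation of a control region, held 88 regions, 39 in all 6 libraries, 2 on the VPA side and 5 on the CTRL side, beside 1.6% and 3.25% of the union. H19 had 2 peaks in each library, and IGF2 had 6, 6 and 7 in CTRL and 6, 6 and 6 in VPA. KCNQ1OT1, which was not tested, had 2, 4 and 4 against 1, 2 and 1, lower without overlap after scaling, and 2 CTRL-side regions. PHLDA2 (1, 1 and 1 against 1, 2 and 2, with 1 VPA-side region), also untested, was higher without overlap after scaling. So was the untested MAGEL2, with 2, 3 and 3 peaks in both treatments, so that scaling alone separated its groups. PLAGL1, a zinc-finger gene, had 6, 9 and 9 against 4, 8 and 7. Of 10 imprinted genes with a mean of at least 3 peaks, it alone had non-overlapping scaled groups, beside 3.17% lower over all tested genes. The highest difference of the 10 was at GNAS-AS1 (3, 4 and 4 against 4, 5 and 4, with overlap). It is not a protein-coding gene and so was not among the 5584 genes tested with limma.

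Of 20 tested genes of synapses and neurons, 2 were higher without overlap after scaling and 0 lower, beside 4.33% and 3.17% of all tested genes. These were the kinesin gene KIF1A (4, 5 and 5 CTRL peaks, 5, 6 and 6 VPA peaks) and the potassium channel gene KCNQ3 (7, 9 and 8 against 8, 10 and 10). The splicing factor gene RBFOX3 had the highest difference in scaled number (18, 21 and 20 against 19, 23 and 20) and CACNA1C, a calcium channel gene, the lowest (18, 23 and 22 against 15, 21 and 18, with 4 CTRL-side regions and 1 VPA-side region), both with overlap. The list as a whole held 9 VPA-side and 10 CTRL-side regions among 309, beside 1.6% and 3.25% of the union. The 4 genes the study examined closely were P3H2 (3, 6 and 5 peaks against 3, 4 and 5), SYNE1, which codes for nesprin-1 of the nuclear envelope (7, 14 and 12 against 8, 11 and 13), CLDN1 (1 in each library) and SP110 (1, 2 and 1 in both treatments). None had a one-sided region among their 24 regions, beside 1.6% (VPA side) and 3.25% (CTRL side) of the union. The study chose these genes with data from the same cells, so they are not independent evidence.

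The list of CTCF and cohesin genes also held ZNF143, YY1 and BRD2. Of its 7 tested genes 0 had non-overlapping groups, beside 4.33% higher and 3.17% lower over all tested genes. None of the list's 49 regions was one-sided, beside 1.6% (VPA side) and 3.25% (CTRL side) of the union. NIPBL, the cohesin loader, had 2, 4 and 3 peaks against 5, 3 and 4, and the cohesin subunit gene STAG1 4, 5 and 5 against 2, 4 and 5. Among histone deacetylase genes HDAC1 and HDAC3 had too few peaks to be tested. Of the 8 tested, the sirtuin gene SIRT7 included, 0 were without overlap. Among acetyltransferase genes 0 of 5 tested were without overlap. HDAC7 (7, 7 and 7 against 8, 7 and 7) and HDAC9 (10, 16 and 17 against 8, 8 and 18) had the highest and lowest scaled difference of the former, and KAT7 (3 in each library, so its difference is that of the scaling alone) and CREBBP (4, 6 and 5 against 1, 5 and 5) of the latter. Nuclear envelope genes gave 0 of 8, with SYNE3 highest (6, 7 and 8 against 7, 8 and 7) and LEMD2 lowest (5, 5 and 5 against 4, 5 and 4). In the globin list HBG2 and HBE1, which share their window's peaks, had 2, 5 and 6 against 1, 4 and 7.

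Identity of the cells was checked at H3K27ac promoters. Of 8 markers of embryonic kidney and of this line, 4 had an H3K27ac peak within 1 kb of the TSS in 3 of 3 CTRL libraries, WT1, LHX1, SIX2 and VIM. Another 3 of the 8 had none in CTRL, so the check was met only in part. Of 10 markers of liver, blood, heart, endothelium and skin, 10 had none in CTRL. The 8 kidney markers held 5 CTRL-side and 0 VPA-side regions among 29, beside 3.25% and 1.6% of the union. CTCF peaks near PAX2, a kidney transcription factor gene, numbered 6, 5 and 6 in CTRL and 4, 3 and 4 in VPA, without overlap before scaling and with it after scaling, and 2 of its regions were on the CTRL side. VIM had 2, 3 and 3 against 2, 4 and 4. Of 4 tested kidney markers it was the 1 with non-overlapping scaled groups, higher in VPA, and 0 were lower. Over all tested genes these shares were 4.33% higher and 3.17% lower. Among the other cell types' markers TNNT2 had 4 peaks in each library and PECAM1 3, 4 and 3 against 3, 3 and 2.

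Shares of peaks by position did not separate the groups. Promoters held 10.9%, 9.85% and 9.45% of the peaks in CTRL and 13.6%, 10.4% and 8.93% in VPA (mean 10.1 ± 0.744% and 10.98 ± 2.36%, SD, n = 3 each, two-sided exact permutation test p = 0.7, adjusted p = 0.9). The smallest p this design allows is 0.1. In replicate 1 the promoter share was 2.67 percentage points higher in VPA, in replicate 2 it was 0.601 points higher, and in replicate 3 the difference was −0.513 points. Introns held 37.2%, 38.2% and 38.4% against 35.3%, 37.3% and 37.8% (exact p = 0.3, adjusted p = 0.9). The intron share was lower in VPA for 3 of 3 replicate numbers, by −1.96 points in replicate 1 and by a mean of −0.761 points in replicates 2 and 3. Exons (7.13% to 9.01%), intergenic positions (42.1% to 46.2%) and positions over 100 kb from a TSS (22.3% to 28.0%) overlapped as fully, with exact p of 0.7 to 0.9.

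The motif lay at 19.6%, 18.3% and 18.5% of CTRL peaks and 24.2%, 18.1% and 19.6% of VPA peaks (mean 18.8 ± 0.723% and 20.7 ± 3.20%, SD, n = 3 each, exact permutation p = 0.7). VPA replicate 1 was the highest, 4.61 points above CTRL replicate 1, and the mean difference in replicates 2 and 3 was 0.452 points. Windows 2 kb from the summits held it in 0.754% to 0.877% of cases, and H3K27ac peaks in 1.13% to 1.43%.

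**Figure D4:**
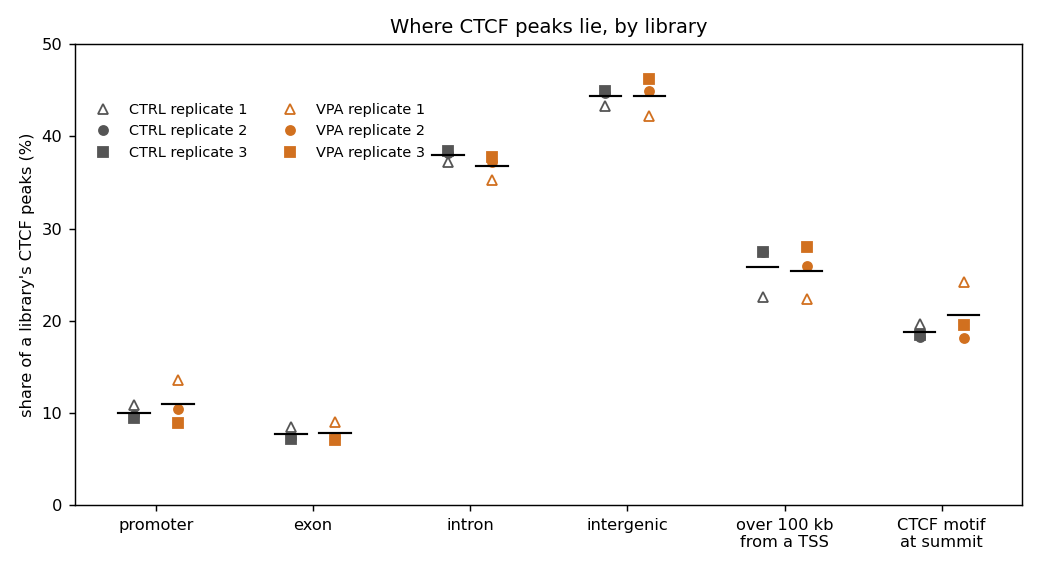
Share of each CTCF list (percent, y axis) by position of the summit and by presence of the CTCF motif within 100 bp of it; grey marks CTRL, orange VPA, open triangles replicate 1, and black bars the mean of 3 libraries. The replicate 1 libraries lie apart from replicates 2 and 3 in most classes, for example at 22.5% and 22.3% of peaks over 100 kb from a TSS against 25.9% to 28.0%.

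No chromosome had non-overlapping peak shares between the groups, 0 of 22 in either direction. On chromosome 1 the share was 10.7%, 10.2% and 10.1% in CTRL and 10.2%, 10.1% and 10.1% in VPA. Chromosome 7 had the smallest p, with 5.28%, 5.40% and 5.34% against 5.43%, 5.40% and 5.43% (exact permutation p = 0.2, adjusted p = 0.978). Gene-dense chromosomes 17 and 19 were higher in replicate 1 of both treatments, at 5.73% and 5.38% of peaks on chromosome 17 against 4.74% to 5.10% in the other 4 lists, and at 4.87% and 4.799% on chromosome 19 against 4.00% to 4.42%. Chromosome 4 was low in CTRL replicate 1 (3.67%) against 4.27% to 4.72% in the other 5 lists. It also had the highest share of union regions on the VPA side, 2.64% of its 3410 regions, while chromosome 19 had the lowest share on the CTRL side, 1.57% of 2668 regions.

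**Figure D5:**
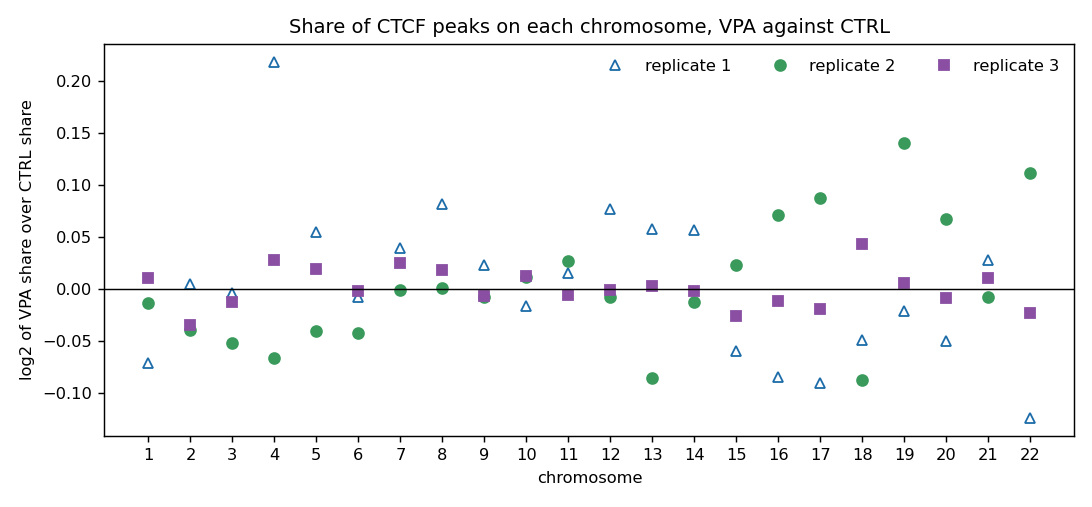
Log2 of the share of CTCF peaks on each chromosome in VPA over that in CTRL (y axis), computed within replicate 1 (open triangles), replicate 2 (circles) and replicate 3 (squares) for chromosomes 1 to 22. The replicate numbers disagree in sign on most chromosomes, for example on chromosome 4 (0.22, −0.07 and 0.03) and chromosome 19 (−0.02, 0.14 and 0.01).

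Occupancy of region classes was compared as the median log2 fold enrichment of the class minus that of all 27794 regions in the same library. Promoter regions (3739) lay at −0.38, −0.86 and −0.95 in CTRL and 0.15, −0.88 and −1.07 in VPA, so VPA replicate 1 stood apart (difference 0.13, exact permutation p = 0.9). Regions with the motif (7284) lay above the rest in every library, at 0.71, 0.41 and 0.41 in CTRL and 0.28, 0.57 and 0.43 in VPA (difference −0.09, exact p = 0.7). Regions with H3K27ac peaks after VPA alone (1828) lay at 0.67, 0.36 and 0.40 against 0.15, 0.55 and 0.42 (difference −0.11, exact p = 0.6), and regions without H3K27ac (15626) at −0.23, −0.08 and −0.07 against −0.13, −0.12 and −0.08. Over all 10 classes, exons, introns, intergenic and distant positions included, differences ran from −0.11 to 0.13 and adjusted p was 1.

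H3K27ac was measured in separate libraries and was not used to define the sides. Its lists were longer in VPA, with 38441, 40992 and 40817 peaks against 26299, 29583 and 29799, and the part of list length in the shares below was not tested. Peaks of H3K27ac overlapped 22.3%, 27.9% and 27.3% of the all-6 CTCF regions in CTRL and 31.1%, 37.1% and 37.5% in VPA, a difference of 9.34 points without overlap between the groups (exact permutation p = 0.1, the smallest possible, adjusted p = 0.3). On the VPA side the shares were 11.1%, 13.3% and 13.1% against 12.2%, 17.9% and 16.4% (3.03 points, exact p = 0.3), and on the CTRL side 11.4%, 13.5% and 13.8% against 13.4%, 15.1% and 14.3% (1.38 points, exact p = 0.3). H3K27ac peaks were absent from 81.0% of VPA-side, 81.8% of CTRL-side, 56.2% of all-6 and 81.7% of the remaining regions in every H3K27ac library. Counting any shared base, the groups overlapped on both sides and not at all-6 regions. With the H3K27ac peak required over the CTCF summit, the all-6 difference was 7.16 points (exact permutation p = 0.3), and the groups overlapped there too. All-6 regions were also wider (median 1029 bp, against 450 bp on the VPA side and 442 bp on the CTRL side). The part of width in these shares was not tested, nor whether the 3 differences differ from each other.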

How the data were processed

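ChIP-seq peak lists of 6 CTCF libraries (3 CTRL, 3 VPA) were analysed, with 6 H3K27ac lists for description. Per the labels and the study's methods, the authors sonicated chromatin to 200 to 600 bp, used Bowtie2 to align reads to hg38, and ran MACS on each library separately with a q-value limit of 0.05. The submitters' processing notes name MACS3 3.0.0a7 and DiffBind. The deposited lists give the fold enrichment (a ratio) of each summit over local background, as the authors' peak caller wrote it. They also give its −log10 p-value and −log10 q-value as deposited. Use of the input libraries in peak calling was not given in the sources used here. Read totals are unknown, so pileup and local background were recovered from fold and p-value (whole within 0.05 in 100% of peaks of 5 lists).

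Peaks sharing at least 1 bp were merged into union regions in Python 3.11.15 and annotated with GENCODE release 44. Differences at regions and of peaks per gene (log2, pseudocount of 0.5) were tested with limma 3.58.1 and Benjamini-Hochberg adjustment, and this test was checked on simulated data. Shares were tested with two-sided exact permutation tests over the 20 assignments of 6 libraries. The text names 10 regions per direction by smallest p, 10 one-sided regions per side by mean rank, 10 genes per direction by largest scaled difference without overlap, and the extremes of each gene list. Alternatives were another q level, equal list lengths, summit windows, centring, pileups, gene windows, a looser motif, the replicate block and leaving out each library. Members and lists were chosen with earlier results of these data known. EMD lies outside chromosomes 1 to 22 and was not analysed here. The input libraries were not used here.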

Additional observations from a re-analysis of the deposited data

How the results depend on the processing

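With 3 libraries a group, exact tests cannot go below p = 0.1, or 0.25 with the replicate block, so they cannot show stability, and the adjusted calls of limma stayed at 0 for regions in every setting tried. Numbers of one-sided regions depended on the presence rule, the libraries and the list lengths. A requirement of 3 of 3 against 0 of 3 left 130 VPA-side and 228 CTRL-side regions, equal list lengths gave 764 and 526, and leaving out 1 library gave 292 to 2136 and 416 to 5481, with the extremes without VPA replicate 3 and CTRL replicate 2 named in the report. The higher number on the CTRL side also turned into a lower one without CTRL replicate 2 (416 against 2136) or CTRL replicate 3 (464 against 1622). Leaving out a CTRL library makes the rule stricter for the CTRL side and easier for the VPA side. These turns therefore cannot be told apart from the effect of the rule itself.

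Genes with non-overlapping scaled peak numbers went from 242 higher and 177 lower to 13 and 26 at equal list lengths, 3117 and 714 with replicates 2 and 3 alone (both VPA lists are then shorter than both CTRL lists, so equal counts separate by scaling), 13 and 61 unscaled, and 316 to 1996 and 296 to 439 when 1 library was left out. For the higher genes it was also 113 with the gene body alone and 1142 at a mean of at least 1 peak. limma called genes only at equal list lengths, 5 higher and 5 lower, all with the same whole number in the 3 libraries of a group, and 0 to 0 when 1 library was left out. Replicates 2 and 3 alone and unscaled numbers were chosen after seeing the data.

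Chromosomes with higher shares in every VPA list numbered 1 with a stricter q-value (−log10 of 5 or more) or at equal lengths, 2 with replicates 2 and 3 alone and 0 to 2 when 1 library was left out, and those with lower shares 3 with replicates 2 and 3 alone and 0 to 3. Differences that turned sign, in percentage points of peaks, were on chromosome 17 (0.119 with replicates 2 and 3), 4 (−0.0600 with replicates 2 and 3) and 19 (−0.0046 at equal lengths), and at positions over 100 kb from a TSS (0.154 at equal lengths). Leaving out 1 library gave −0.193 to 0.273 on chromosome 17, −0.164 to 0.326 on 4, −0.0744 to 0.405 on 19 and −0.307 to 0.0023 on 1. It gave −1.99 to 1.19 at distant positions, −0.404 to 0.600 at exons, −0.821 to 1.19 at intergenic positions, −0.37 to 1.94 at promoters and −1.66 to −0.421 at introns, 0.0399 to 3.09 for the motif share, and 1.83 to 4.68, 0.623 to 1.85 and 7.59 to 11.4 for H3K27ac at VPA-side, CTRL-side and all-6 regions. Among region classes, with replicates 2 and 3 alone, log2 differences turned to 0.16 (H3K27ac after VPA alone), −0.0308 (distant), 0.0078 (intergenic), −0.0119 (without H3K27ac), 0.0924 (with motif) and −0.0056 (without motif). Leaving out 1 library gave −0.21 to 0.12, −0.0849 to 0.12, −0.0576 to 0.0602, −0.0485 to 0.0421, −0.16 to 0.0921 and −0.0417 to 0.0418 for these in turn, −0.0995 to 0.24 for H3K27ac in both treatments, −0.0456 to 0.18 for exons and −0.18 to 0.37 for promoters. The cause of these turns was not tested. Without the centring the median difference of all regions moved from 0.10 to −0.02. With pileups in place of fold enrichment, centred alike, it was 0.26.

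Replicate numbers did not pair the libraries consistently. Deviations from the group means of same-numbered CTRL and VPA libraries correlated at 0.34, −0.05 and 0.48. CTRL replicate 1 correlated at 0.02 and −0.49 with VPA replicates 2 and 3, and VPA replicate 1 at −0.26 and −0.35 with CTRL replicates 2 and 3. VPA replicate 3 correlated at 0.41 with CTRL replicate 2 as well. With the replicate block limma gave 0 regions and 0 genes in both directions (343 regions higher and 173 lower, and 140 genes higher and 136 lower, at an unadjusted p under 0.05). The promoter share then differed by 0.918 points (exact p = 0.5). Relative depth was even between libraries, but a region's median 95% interval of 1.29 log2 units limits what could be detected.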
